A study of Mus musculus with 6 samples.

Results

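Molecular chaperones of the cytosol and mitochondria, with the co-chaperones that steer them, were examined as 72 genes among the 15982 of the deposited table. They were chosen by symbol alone, with a rule set when earlier results of these data were known. It takes the Hsp70, Hsp90, Hsp60, Hsp10, Hsp110 and small heat shock protein genes and the subunits of the CCT chaperonin. It also takes every DNAJ gene (J-proteins), the BAG genes and the transcription factors Hsf1 and Hsf2. Endoplasmic reticulum chaperones (7 genes) and genes named as pseudogenes (2) were left out. The symbol rule also takes in genes that are not general chaperones of these compartments, such as Dnajc1 of the endoplasmic reticulum membrane, Dnajc8 of the spliceosome and Hspb11 of intraflagellar transport.

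The RNA came from primary mouse bone marrow-derived macrophages (BMMs), cells grown out of bone marrow with the growth factor M-CSF. After 3 days in M-CSF at 20 ng/ml the cells received M-CSF at 20 ng/ml plus RANKL at 50 ng/ml, the cytokine that starts osteoclast formation, for 2 days. The groups were BMMs of control mice (Ctrl, 3 libraries) and of mice lacking the mitotic kinase gene Bub1 in myeloid cells (Bub1 cKO, 3 libraries). The labels do not state the Cre driver, the deleted exons, the age of the mice, what the Ctrl mice carry or whether the libraries came from separate animals, so the p-values measure a spread between libraries that may be technical.

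Each gene has 1 value per group by the authors' deposited table, with no value per library, so no SD can be given and depth is unknown. The group values were read as TPM, a unit that scales each library to the same total, because they sum to 999891 in Ctrl and 999954 in Bub1 cKO. CPM would sum alike, and how transcript length was handled for these 3' mRNA libraries is not known. Levels of different genes, shares and sums are thus compared below only on the TPM reading. The table holds 2 measures of change. The log2 change of the group values is log2 of (Bub1 cKO + 1)/(Ctrl + 1). What is called here the test's own log2 change is the authors' statistic times its standard error. It is not a deposited value and rests on reading the statistic as an estimate divided by that error. The p-value is taken to belong to it, and folds and 95% intervals are given on that reading. Higher and lower below follow the sign of that statistic.

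Chaperones bind proteins that are not yet folded or have lost their fold. Hsp70 proteins hold short exposed stretches in a cycle driven by ATP. J-proteins deliver substrates and start the cycle, and many BAG proteins and the Hsp110 proteins end it by exchanging the nucleotide. Hsp90 takes over late folding steps of kinases and receptors, while the CCT ring encloses actin, tubulin and other substrates, and Hsp60 with its lid Hsp10 does so in the mitochondrial matrix. Hsf1 switches many of these genes on after heat or protein damage. Osteoclast precursors enlarge, fuse and fill with mitochondria as they mature.

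Bub1 itself stood at 6.73 TPM in Ctrl against 5.32 TPM in Bub1 cKO, with an adjusted p of 0.985 by the authors' deposited table. Tags from the 3' end need not come from the deleted exons, so this does not check the labels. Markers of macrophages (Csf1r, 116 and 96.7 TPM) and of osteoclasts (Ctsk, 537 and 696 TPM) were present in both groups by the authors' deposited table. Markers of other cells moved between the groups: 5 erythroid markers summed to 19.6 TPM in Ctrl against 358 TPM in Bub1 cKO, all 5 with a positive statistic and Alas2 at 0 in Ctrl. Summed neutrophil markers (10 genes, all 10 with a positive statistic) stood at 95.8 and 233 TPM, with Elane, Camp and Retnlg at 0 in Ctrl. The group values of Ltf went the other way, at 12.3 and 6.74 TPM, where its statistic was 0.22 (standard error 1.75). The summed osteoclast markers (8 genes, 7 positive) were at 1967 and 2274 TPM, the macrophage markers (7 genes, 2 positive) at 2600 and 1220 TPM. The fall in the macrophage sum came from Lyz2 (2141 and 762 TPM by the authors' deposited table). Without it the other 6 summed to 459 and 458 TPM, with 2 positive, among them Cd68 at 260.1 and 306 TPM. At the authors' unadjusted p under 0.05, 1 of those 6 was higher (Cd68) and 2 were lower (Csf1r and Itgam). Of the 8 osteoclast markers 4 were higher and 0 lower at that threshold, beside 2.35% and 2.46% of all genes. An adjusted p under 0.05 was reached by 2 erythroid markers, 1 neutrophil marker and Lyz2, and by 0 osteoclast markers. B and T cell markers (4 genes) summed to 1.35 and 0.751 TPM, and stromal markers (5 genes) to 2.20 and 2.72 TPM. The part of these cell types in the chaperone values was not tested, and in bulk RNA fewer cells of a type and less RNA per cell cannot be told apart.

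Among the 72 genes, no gene passed the authors' adjusted p, and the members with the smallest unadjusted p were mostly abundant core chaperones with higher values in Bub1 cKO. The 0 of 72 at an adjusted p under 0.05 stands beside 0.181% of all genes (29 of 15982), and the smallest adjusted p of a member was 0.576. Without adjustment, 10 members were higher in Bub1 cKO at p under 0.05 and 0 lower, 13.9% and 0% of the 72. Over the whole table these shares were 2.35% higher and 2.46% lower. The 10 genes were Hsp90aa1, Hsp90ab1, Hspa8, Hspa9, Hspd1, Hspe1, Tcp1, Cct3, Bag4 and Dnajc27, with adjusted p between 0.576 and 0.985. A positive statistic was found in 45 members and a negative one in 27, which is 62.5% positive beside 49.9% of all genes. The median log2 change of the group values was 0.11 over the members and -0.01 over all genes.

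The authors' standard error is smaller for abundant genes, with a median of 0.22 for members of at least 10 TPM and 1.10 for the others, so the counts were also set beside genes of like level. A mean of at least 10 TPM was reached by 41 members, 38 of them in both groups and 3 in 1 group only. Of the 41, 8 were higher at an unadjusted p under 0.05 and 0 lower, and each of the 8 was above 10 TPM in both groups. Among the 5159 genes of the table at that level, 4.28% were higher and 4.01% lower. At a mean of at least 100 TPM, 6 of 17 members were higher and 0 lower, where 5.01% of 1058 genes were higher and 4.25% lower. Below 10 TPM, 2 of 31 members were higher and 0 lower, where 1.43% of 10823 genes were higher and 1.72% lower. There 16 of the 31 statistics were positive, beside 49.3% over all genes of that level.

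**Figure D1:**
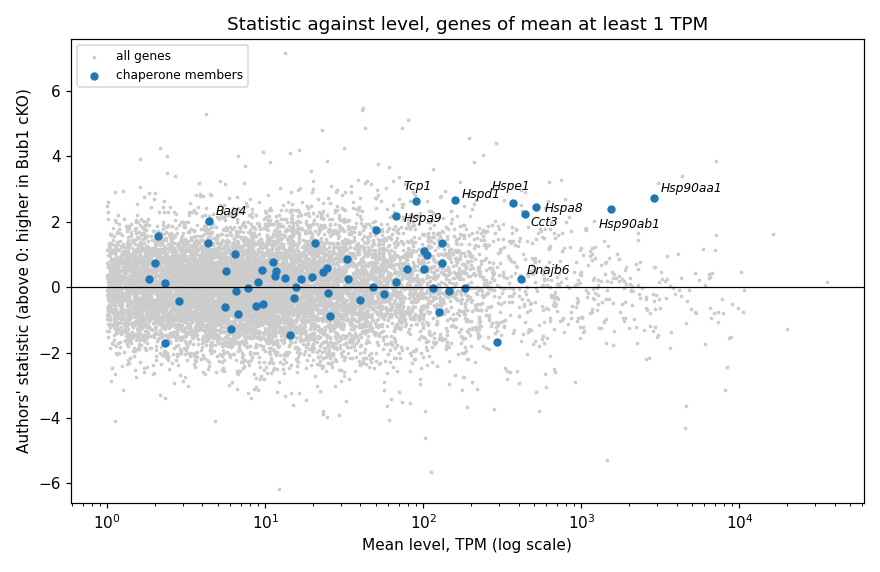
Authors' statistic (vertical axis, above 0 means higher in Bub1 cKO) against mean level in TPM (horizontal, log scale) for the 10881 genes of mean at least 1 TPM (grey) and the 60 members among them (blue). Named are Dnajb6 and 9 of the 10 members with an unadjusted p under 0.05 (Dnajc27, mean 0.704 TPM, lies off the left edge), 8 of which sit at the abundant end.

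Hsf1, the transcription factor that activates heat shock genes, stood at 7.86 TPM in Ctrl against 7.59 TPM in Bub1 cKO by the authors' deposited table (the authors' unadjusted p = 0.974). Its paralogue Hsf2 had 10.6 and 6.85 TPM, or -0.56 on the log2 scale, where the authors' test gave -0.24 (standard error 0.43; the authors' unadjusted p = 0.574). Neither transcript was thus separated between the groups. Transcript levels do not measure Hsf1 activity, which depends on trimer formation and modification of the protein.

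Hsf1 binds repeats of the unit GAA in alternating orientation. The letters GAANNTTC or TTCNNGAA, 2 such units in either order, were searched on both strands (each motif is its own reverse complement) in the 250 bases before the RefSeq start (GRCm38.p6) of the 59 members whose entry was used. They occurred in 14 of the 59 genes (23.7%), and in 14.5% of 27025 genes of the table of promoters. Runs of 3 units, GAANNTTCNNGAA or its reverse complement TTCNNGAANNTTC, which contain the shorter motifs, were found in 3 of 59 members (5.08%) and in 0.514% of all genes. The 3 are Hspd1, Hspe1 and Dnajb6, shown because the first 2 are among the 10 genes above and the last carries the most discordant values of the set. Of those 10 genes, Hsp90aa1, Hsp90ab1, Hspa8, Hspa9 and Bag4 were not among the 59. Their promoters were not searched, so nothing is known here of their motifs. Hspa1a and Hspa1b are shown as the classical heat-inducible genes. Capitals mark the matched units, 5′ to 3′ on the strand of the gene.
Hspd1, chr1:55088053-55088082, minus strand: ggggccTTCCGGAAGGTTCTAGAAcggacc
Hspe1, chr1:55088053-55088082, plus strand: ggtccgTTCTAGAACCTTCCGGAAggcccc
Dnajb6, chr5:29735843-29735872, plus strand: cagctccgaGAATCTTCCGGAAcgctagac
Hspa1a, chr17:34972242-34972271, minus strand: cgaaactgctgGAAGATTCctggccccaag
Hspa1b, chr17:34959324-34959353, minus strand: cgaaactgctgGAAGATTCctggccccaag
Hspd1 and Hspe1 are divergent neighbours and share 1 site, read here from both strands, which lies 127 to 144 bases before the RefSeq start of Hspd1 and 72 to 89 bases before that of Hspe1. The windows of Hspa1a and Hspa1b are identical over the 30 bases. GENCODE M21 places the shared site in the 5′ UTR of an Hspd1 transcript, and the Dnajb6 site in that of a Dnajb6 transcript, that start upstream of the RefSeq entry, while no exon covers the Hspa1a and Hspa1b sites. A match describes letters and not a bound site.

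Cytosolic Hsp90 was the largest contributor on the TPM scale: its 2 genes made up 48.3% of the summed member values in Ctrl and 53.5% in Bub1 cKO. These shares also move with Dnajb6, which held 7.61% of the sum in Ctrl and 2.30% in Bub1 cKO. That fall was not followed by the authors' test, as described below. Hsp90aa1, the stress-inducible isoform (chromosome 12, 110690605 to 110702728, minus strand, GRCm38), stood at 2509 TPM in Ctrl against 3280 TPM in Bub1 cKO by the authors' deposited table. Its own log2 change in the test was 0.37 (95% interval 0.10 to 0.63; the authors' unadjusted p = 0.006, adjusted p = 0.576), or 1.29-fold. Hsp90ab1, the constitutive isoform (chromosome 17, 45567775 to 45573271), had 1398 and 1680 TPM by the authors' deposited table. Its own log2 change in the test was 0.22 (interval 0.04 to 0.39; the authors' unadjusted p = 0.017, adjusted p = 0.841). Both isoforms thus lay in the same direction, with intervals that overlap.

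In the cytosolic Hsp70 family the constitutive member carried most of the level. Hspa8 (Hsc70; chromosome 9, 40800984 to 40810087) was at 445 TPM in Ctrl against 580 TPM in Bub1 cKO by the authors' deposited table, with an own log2 change in the test of 0.28 (interval 0.06 to 0.50; the authors' unadjusted p = 0.015, adjusted p = 0.784). The heat-inducible genes Hspa1a and Hspa1b, whose products are the stress form of Hsp70, were low. By mean level they ranked 13068 and 11927 among the 15982 genes. Hspa1a was at 0.384 and 0.160 TPM and Hspa1b at 1.01 and 0.090 TPM by the authors' deposited table, with negative statistics and unadjusted p of 0.555 and 0.055. Their standard errors of 2.04 and 1.79 leave wide intervals, from -6.96 to 0.07 for Hspa1b.

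The Hsp110 exchange factors Hspa4 and Hsph1 stood at 44.7 and 55.9 TPM and at 14.5 and 19.1 TPM by the authors' deposited table. Hspa4 had an own log2 change of 0.30 (interval -0.03 to 0.64) and Hsph1, a heat-inducible gene, one of 0.08 (-0.56 to 0.73). Hspa14, which works on nascent chains at the ribosome together with the J-protein Dnajc2, was at 33.3 and 18.0 TPM by the authors' deposited table, against 78.3 and 122 TPM for Dnajc2. The test itself put Hspa14 at -0.31 (interval -0.99 to 0.37) and Dnajc2 at 0.21 (-0.16 to 0.59), so neither partner was separated from 0. Hspa14 overlaps Gm45902 on the same strand over 8264 bases, and reads in the shared part cannot be assigned with certainty. The other members, Hspa4l, Hspa12b, Hspa2 and Hspa1l, had unadjusted p from 0.416 to 0.657. In all, 1 of the 10 genes of this family had an unadjusted p under 0.05, 5 had a positive statistic, and 4 had a mean below 1 TPM. Of all genes, 2.35% were higher and 2.46% lower at that threshold.

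Small heat shock proteins, which hold aggregating proteins without using ATP, were scarce. Hspb1 stood at 2.26 and 2.41 TPM and Hspb8 at 0.085 and 0.194 TPM by the authors' deposited table. Hspb6 was at 3.65 TPM in Ctrl against 0.980 TPM in Bub1 cKO (the authors' unadjusted p = 0.090, adjusted p = 0.985). Hspb11 was the most abundant by symbol, at 23.8 and 43.2 TPM by the authors' deposited table, but the test put its own log2 change at 0.18 with a standard error of 0.71. None of the 4 had an unadjusted p under 0.05, beside 2.35% of all genes higher and 2.46% lower.

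**Figure D2:**
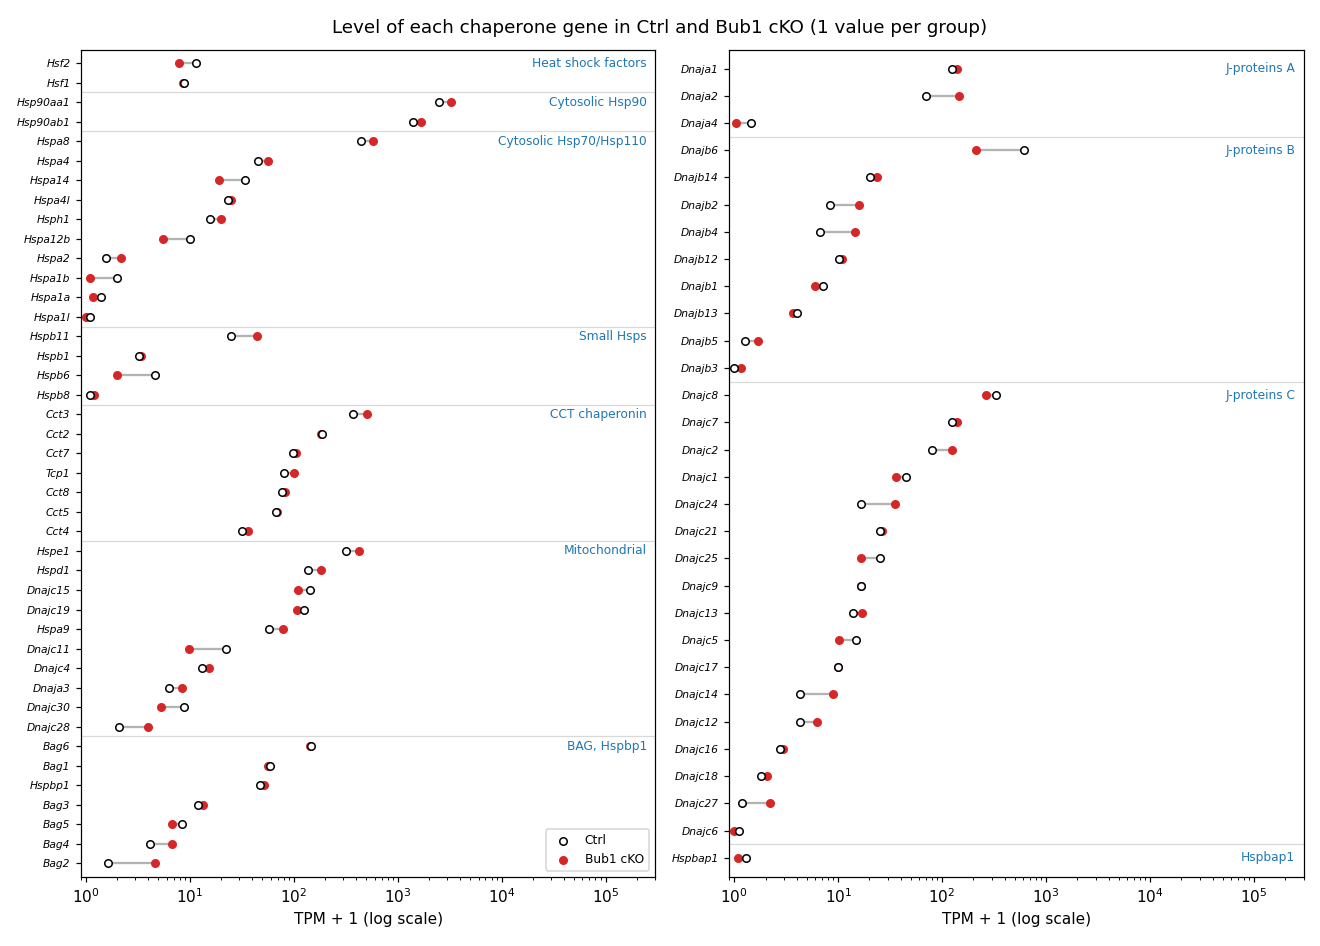
Level of each of the 72 genes in Ctrl (open circles) and Bub1 cKO (red), as TPM + 1 on a log axis, grouped by family, with 1 value per group and no error bar. Hsp90aa1, Hsp90ab1 and Hspa8 lie to the right in Bub1 cKO, Dnajb6 lies far to the left, and Hspa1a and Hspa1b sit near the lower end in both groups.

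The CCT chaperonin, also called TRiC, folds actin and tubulin in a double ring of related subunits. Values were available for 7 subunit genes; Cct6a was not analysed here. Tcp1, the alpha subunit, stood at 79.3 TPM in Ctrl against 101 TPM in Bub1 cKO by the authors' deposited table, with an own log2 change in the test of 0.39 (interval 0.10 to 0.67; the authors' unadjusted p = 0.008, adjusted p = 0.642). Cct3, the gamma subunit, had 372 and 504 TPM and an own log2 change of 0.46 (interval 0.06 to 0.86; the authors' unadjusted p = 0.025, adjusted p = 0.893). The other subunits, which occupy fixed places in the same ring, lay close to 0. By the authors' deposited table Cct2 was at 186 and 182 TPM, Cct4 at 30.9 and 35.3 TPM and Cct5 at 67.0 and 67.8 TPM. Cct7 was at 97.5 and 103 TPM and Cct8 at 76.4 and 80.8 TPM. Their own log2 changes ran from -0.00 to 0.19, and the interval of Cct2 (-0.40 to 0.39) overlaps those of Cct3 and Tcp1, so unequal change among subunits was not shown. Over the family 6 of 7 statistics were positive and 2 of 7 had an unadjusted p under 0.05. Among all genes of mean at least 10 TPM, 51.1% of statistics were positive. At that threshold 4.28% of those genes were higher and 4.01% lower.

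In the mitochondrial group the genes with the smallest p were those of the matrix folding machine. Hspd1, which encodes Hsp60 (chromosome 1, 55077835 to 55088243, minus strand), was at 137 TPM in Ctrl against 181 TPM in Bub1 cKO by the authors' deposited table. Hspe1, which encodes its lid Hsp10 (55088132 to 55091307, plus strand), was at 320 and 422 TPM. The own log2 changes were 0.42 (interval 0.11 to 0.72; the authors' unadjusted p = 0.008, adjusted p = 0.641) for Hspd1 and 0.41 (0.10 to 0.72; the authors' unadjusted p = 0.010, adjusted p = 0.687) for Hspe1. The estimates of these divergent genes were nearly equal. Hspa9, the mitochondrial Hsp70 that pulls proteins through the inner membrane, was at 57.2 and 77.3 TPM by the authors' deposited table, with an own log2 change of 0.44 (interval 0.05 to 0.83; the authors' unadjusted p = 0.029, adjusted p = 0.917).

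Among their J-proteins, Dnajc15 and Dnajc19 of the import motor had 144 and 109 TPM and 124 and 107 TPM by the authors' deposited table. The test put them at -0.28 (interval -1.01 to 0.45) and -0.01 (-0.62 to 0.61). Dnaja3, the J-protein partner of Hspa9 in the matrix, was at 5.28 and 7.50 TPM with an own log2 change of 0.50 and a standard error of 0.50. The remaining 4, Dnajc4, Dnajc11, Dnajc28 and Dnajc30, had unadjusted p from 0.203 to 0.771. Over the 10 genes of the mitochondrial group 3 had an unadjusted p under 0.05, all higher, and 6 of 10 statistics were positive. Among all genes of mean at least 1 TPM, 49.6% of statistics were positive. At that threshold 3.06% of those genes were higher and 3.21% lower.

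Of the nucleotide exchange and BAG co-chaperones, Bag6, which guards hydrophobic proteins in the cytosol, was at 146 and 144 TPM by the authors' deposited table. Bag1 was at 57.8 and 55.4 TPM. Hspbp1, an exchange factor, was at 46.2 and 50.2 TPM. Bag3, a heat-inducible gene that links Hsp70 to autophagy, was at 11.0 and 12.3 TPM with an own log2 change of 0.19 (interval -0.54 to 0.91). Bag4, known as a silencer of death domains of TNF receptors, was the one member here with an unadjusted p under 0.05, at 3.17 and 5.67 TPM by the authors' deposited table (own log2 change 0.89, interval 0.03 to 1.76; the authors' unadjusted p = 0.043, adjusted p = 0.985). Bag2 and Bag5 were at 0.616 and 3.59 TPM and at 7.41 and 5.69 TPM, with standard errors of 1.25 and 0.54. Hspbap1, which the symbol rule takes in for its name, was at 0.286 and 0.089 TPM by the authors' deposited table.

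**Figure D3:**
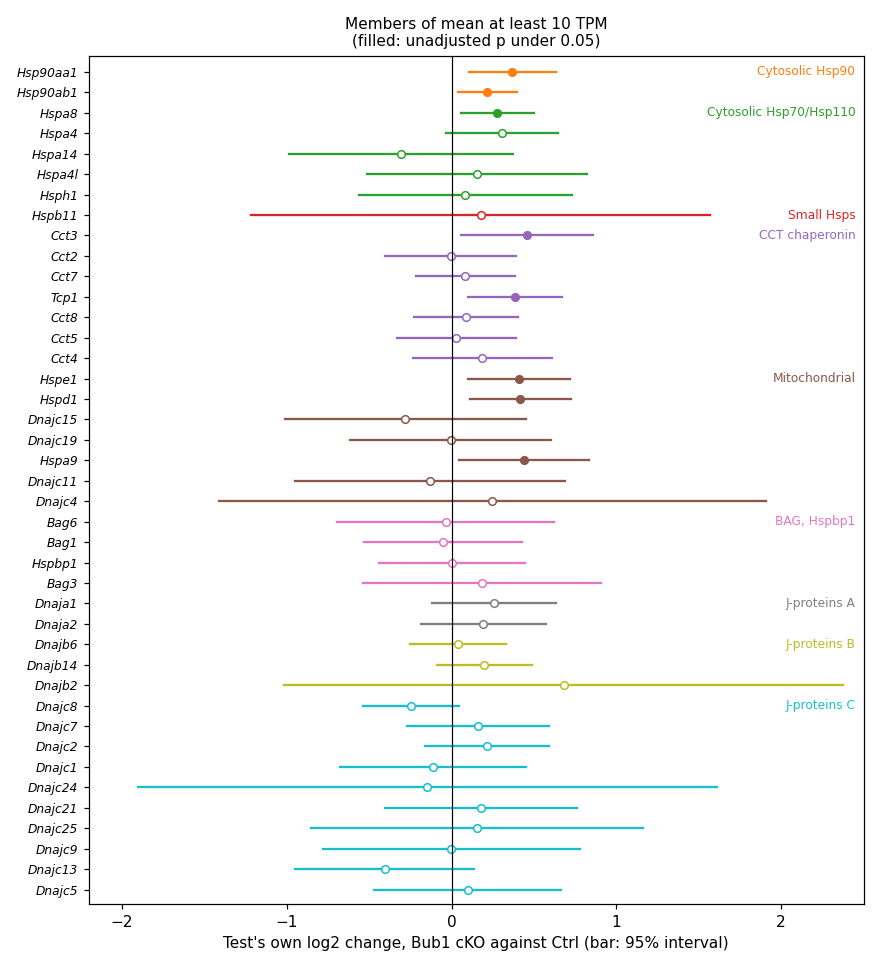
The test's own log2 change (points) with its 95% interval (bars) for the 41 members of mean at least 10 TPM, Bub1 cKO against Ctrl, coloured by family; filled points have an unadjusted p under 0.05. The 8 filled points, all right of 0, belong to the Hsp90, Hsp70, CCT and mitochondrial families, and no J-protein of this level is filled.

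J-proteins make up 36 of the 72 genes. In this class 1 of 36 (2.78%) was higher at an unadjusted p under 0.05, against 9 of the 36 other members (25%). In both sets 0 were lower. Of all genes, 2.35% were higher and 2.46% lower. Median levels were 11.3 TPM for the J-proteins and 29.4 TPM for the other members, with median standard errors of 0.49 and 0.34. Positive statistics numbered 22 of 36 and 23 of 36, beside 49.9% of all genes. The difference between these counts was not tested. The class A protein Dnaja1, the main partner of Hspa8, was at 123 and 139 TPM by the authors' deposited table, with an own log2 change of 0.26 (interval -0.12 to 0.64). The heat-inducible class B gene Dnajb1 was at 6.09 and 4.99 TPM, with an own log2 change of -0.27 (interval -1.13 to 0.59). Beside Dnajb6, described below, the most abundant class B genes were Dnajb14, a membrane J-protein at 19.0 and 22.5 TPM, and Dnajb2, at 7.26 and 15.0 TPM with a standard error of 0.87. The class A gene Dnaja4 was at 0.437 and 0.047 TPM by the authors' deposited table. Dnajc7, which passes substrates between Hsp70 and Hsp90, was at 124 and 138 TPM by the authors' deposited table (the authors' unadjusted p = 0.467). Dnajc8 was at 326 and 261 TPM, with an own log2 change of -0.25 (interval -0.54 to 0.04; the authors' unadjusted p = 0.095).

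The one J-protein gene with an unadjusted p under 0.05 was Dnajc27, a small GTPase with a J domain, at 0.201 and 1.21 TPM by the authors' deposited table (the authors' unadjusted p = 0.011, adjusted p = 0.722). Its interval, from 0.73 to 5.77 on the log2 scale, is that of a transcript with a mean of 0.704 TPM. The remaining 13 class C genes, among them the clathrin uncoating factor Dnajc6 and the endosomal Dnajc13, had means from 0.055 to 39.5 TPM. Their statistics were positive in 8 and negative in 5, and the smallest unadjusted p was 0.144.

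Several J-protein genes gave group values that the authors' test did not follow. Dnajb6, a potent suppressor of aggregation, was at 616 TPM in Ctrl against 213 TPM in Bub1 cKO by the authors' deposited table, which is -1.53 on the log2 scale. The test itself put the change at 0.04 (interval -0.25 to 0.33; the authors' unadjusted p = 0.799), so the 2 measures lie 10.6 standard errors apart, the fifth widest gap among the 15982 genes. Dnaja2, a partner of Hspa8, was at 68.7 and 143 TPM, which is 1.05 on the log2 scale, where the test gave 0.19 (interval -0.19 to 0.57), 4.42 standard errors away. Neither gene can be called lower or higher from such values.

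A gap of more than 1 standard error was found in 9 of the 41 members of mean at least 10 TPM (22.0%), and in 15.5% of all 5159 genes at that level. Of the 9, 8 are J-proteins (of 19 at that level) and 1, Hspa14, is among the 22 other members. The J-proteins are Dnajb6, Dnaja2, Dnajc11, Dnajc13, Dnajc5, Dnajc2, Dnajc25 and Dnajc24. The 2 measures had opposite signs in 5 of the 41, beside 14.0% of all genes at that level. Division by transcript length enters TPM but need not enter a test on reads. In GENCODE M21 the longest transcript of a gene was a median of 9.42 times the shortest for the 9 genes, and 6.08 times for 29 matched members with smaller gaps, while the median number of transcripts was 6 and 7. For Dnajb6 this ratio was 23.7 over 12 transcripts, and for Dnaja2 5.76 over 2. The part of transcript length in the gaps was not tested. The 8 abundant genes with an unadjusted p under 0.05 all had gaps below 1 standard error.

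**Figure D4:**
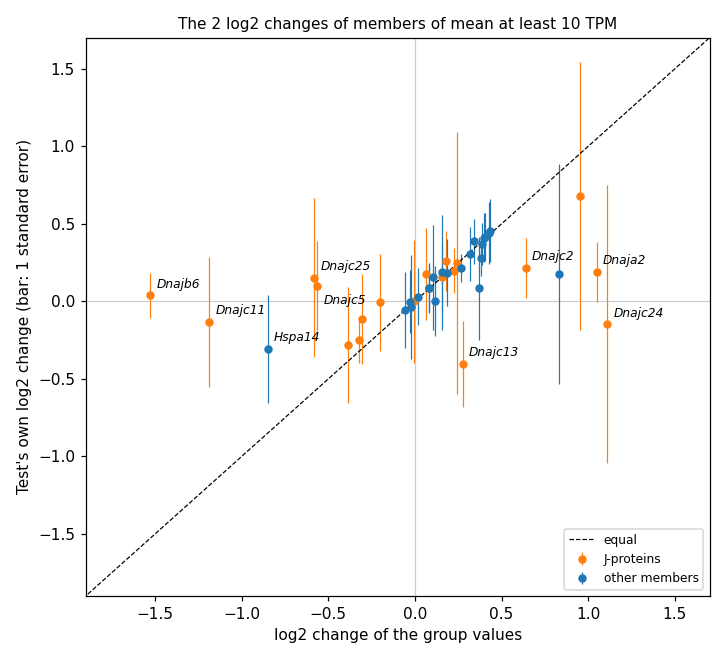
The test's own log2 change (vertical, bar of 1 standard error) against the log2 change of the group values (horizontal) for the 41 members of mean at least 10 TPM; the dashed line marks equality. The 9 named genes lie more than 1 standard error off the line, Dnajb6 farthest at -1.53 against 0.04.

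Summed over all 72 genes the values were 8092 TPM in Ctrl against 9274 TPM in Bub1 cKO, 0.809% and 0.927% of the table. The log2 ratio of these sums was 0.20, 0.10 without Hsp90aa1, and 0.27 over the members whose 2 log2 changes lie within 1 standard error. A list of 13 members that heat induces or raises, which overlaps the families above, summed to 4967 and 6322 TPM. At an unadjusted p under 0.05, 5 of 13 were higher and 0 lower, beside 2.35% and 2.46% of all genes. At a mean of at least 10 TPM the shares of all genes were 4.28% and 4.01%. The list holds Hsp90ab1 and Hspa8, described above as constitutive. Without them 3 of 11 had an unadjusted p under 0.05, and the sums were 3125 and 4062 TPM. Those 5 (Hsp90aa1, Hsp90ab1, Hspa8, Hspd1 and Hspe1) are among the 10 genes counted above and are also abundant without heat. The genes that depend most on stress, Hspa1a, Hspa1b, Hspb1, Hspb8 and Dnajb1, had unadjusted p from 0.055 to 0.906. The first 4 of these had means of 0.14 to 2.33 TPM and standard errors of 1.38 to 4.01, and Dnajb1 a standard error of 0.44. Such errors leave changes of the size found in those 5 abundant genes undecided. Whether a heat shock response took place was not tested.

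Genes that work with these chaperones but fall outside the symbol rule were counted for comparison. All genes counted in this and the next paragraph had a mean of at least 1 TPM. Among the 10881 genes of the table at that level, 49.6% of statistics were positive. At an unadjusted p under 0.05, 3.06% of them were higher and 3.21% lower. Of 14 Hsp90 and Hsp70 co-chaperones 13 had a positive statistic and 0 an unadjusted p under 0.05, with a median log2 change of the group values of 0.22. The smallest unadjusted p was that of Ptges3, the p23 co-chaperone of Hsp90, at 99.7 and 119 TPM by the authors' deposited table (p = 0.068), followed by the ubiquitin ligase Stub1 at 28.0 and 35.5 TPM. Prefoldin and other CCT and tubulin cofactors (15 genes) had 8 positive statistics, 0 with an unadjusted p under 0.05 and a median of -0.00. There the smallest p belonged to the prefoldin subunits Pfdn6, at 87.8 and 121 TPM, and Pfdn1, at 50.6 and 60.9 TPM, by the authors' deposited table.

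Of 14 genes of mitochondrial folding and quality control 11 had a positive statistic and 1 an unadjusted p under 0.05, with a median log2 change of the group values of 0.33. That gene was Yme1l1, a protease of the inner membrane, at 15.4 and 21.6 TPM by the authors' deposited table (the authors' unadjusted p = 0.013, adjusted p = 0.761). Grpel1, the nucleotide exchange factor of Hspa9, was at 8.50 and 13.2 TPM (the authors' unadjusted p = 0.052). Of the 7 endoplasmic reticulum chaperones that the rule leaves out, 6 had a positive statistic and 2, Dnajc3 and Hspa5, an unadjusted p under 0.05 (0.030 and 0.046). The 2 measures of change had opposite signs in 1 of 14 co-chaperones and 3 of 15 CCT and tubulin cofactors. They did so in 3 of 14 mitochondrial genes (Clpb, Clpx and Hscb, counted above as positive) and 1 of 7 endoplasmic reticulum chaperones. Over genes of mean at least 1 TPM, they did so in 1336 of 10881.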

How the data were processed

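The 6 libraries (3 Ctrl, 3 Bub1 cKO) are QuantSeq 3' mRNA libraries, each from 25 ng RNA, per the labels. The authors deposited 1 table, and its header names RaNA-seq, a web service. The sources used here do not name its aligner, genome build, annotation or statistical test. Deposited group values were read as TPM. The deposited log2 change equals log2 of the group values with a pseudocount of 1 within 0.002 in all 15982 genes. The deposited statistic and its standard error are treated as scores, and the p-value and adjusted p are the authors' own, over the whole table.

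A count model was planned only for a table with values per library, which this is not. The authors' adjusted p under 0.05 was therefore the test, as fixed for such a table. Intervals are the statistic times the standard error, plus or minus 1.96 standard errors. Members, lists and rules were chosen with earlier results of these data known. Named are members with an unadjusted p under 0.05, the 3 of the highest mean per family, all CCT, Hsp90, Hsf and heat-inducible members, and up to 2 genes of the smallest p per list of other genes. All other members in the text were named after their values were seen. Positions are from GENCODE M21 (GRCm38), where 66 of 72 IDs matched with their version; whether the authors used that build is not known. Promoters are from RefSeq (GRCm38.p6). Copies were sought with BLAST 2.17.0. Scripts ran in Python 3.11.15 with pandas 2.3.3. The Benjamini-Hochberg step was tested on simulated data. Alternatives were pseudocounts of 5 and 0.1, mean filters of 1 and 10 TPM, other thresholds and the other log2 change.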

Additional observations from a re-analysis of the deposited data

How the results depend on the processing

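No paired analysis was possible because the table holds 1 value per group, and for the same reason no library could be left out. The count of 0 members at an adjusted p under 0.05 was also 0 at 0.1 and after adjusting p again over genes of mean at least 1 TPM (smallest value 0.398). The 10 higher members became 3 at an unadjusted p under 0.01 (Hsp90aa1, Hspd1 and Tcp1), where fewer genes can pass. They became 9 and 8 with mean filters of 1 and 10 TPM, and 0 members were lower in each of these settings. The 45 positive statistics became 29 of the 41 members of mean at least 10 TPM, a smaller set. The median log2 change lay between 0.08 and 0.15 over 6 alternatives, 1 of which (members whose 2 log2 changes lie within 1 standard error) was chosen after seeing the data. With the test's own log2 change in place of that of the group values, the sign turned in 7 of the 72 members. The test gave 0.038 for Dnajb6 (group values -1.53), -0.28 for Dnajb4 (1.12), 0.10 for Dnajc5 (-0.56), -0.40 for Dnajc13 (0.28), 0.11 for Dnajc17 (-0.02), -0.15 for Dnajc24 (1.11) and 0.15 for Dnajc25 (-0.58). Another 7 (Dnaja2, Dnajc2, Dnajc11, Dnajc14, Dnajc27, Hspa14 and Hspa1b) kept their sign and moved by more than 1 standard error, and 58 moved by less; the cause was not tested. The list of heat-raised members without Hsp90ab1 and Hspa8, 3 in place of 5, was also chosen after seeing the data. Depth is unknown, and standard errors above 1 limit most members under 1 TPM.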

Other observations

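Processed pseudogenes of abundant chaperones can take up reads of their parent. The authors' deposited table has the pseudogene Hspd1-ps3, which the symbol rule leaves out, at 0.302 TPM in Ctrl against 3.73 TPM in Bub1 cKO (the authors' unadjusted p = 0.004, adjusted p = 0.445), beside 137 and 181 TPM for Hspd1. Hspe1-ps1 was listed at 0 and 1.60 TPM, with a standard error of 4.08 (the authors' unadjusted p = 0.807). The last 500 bases of the longest coding transcript of 66 members were compared with all GENCODE M21 transcripts, at 95% identity or more over at least 75 bases. Such copies were found for 6 members, and copies of 2 of them, Hspa8 and Hsp90ab1, have rows in the table. Hspd1-ps3 and Hspe1-ps1 were not among the copies found. For Hspa8 the 4 copies in the table summed to 3.51 TPM in Ctrl against 1.56 TPM in Bub1 cKO, and its log2 change of the group values was 0.38 both alone and with the copies added.

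Bub1 lies on chromosome 2, and 6 members with a matched position lie on that chromosome. None of the 6 had an unadjusted p under 0.05, beside 2.35% of all genes higher and 2.46% lower. With shares that low, so few genes say little. An effect of the Bub1 locus on its chromosome was not tested.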
